A study of Homo sapiens with 21 samples.

Results

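The genes described here encode the machinery of the unfolded protein response and the chaperones of the endoplasmic reticulum (ER). They were taken from the count table by name, as 35 listed genes out of 28395 rows. All 35 were present in the table and 34 passed the filter on low counts. *DERL3* did not, because it had a count of 0 in every library.

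RNA was measured in Hs578T cells, a mesenchymal triple-negative breast cancer line, collected 8 h after treatment. The 21 libraries formed 7 groups of 3 replicates. The control received DMSO. The single agents were THZ531 at 0.1 µM, lapatinib at 3.16 µM and nilotinib at 1 µM, the combinations were each of these inhibitors with 0.1 µM THZ531, and the last group received THZ531 at 1 µM. All groups were the wild-type line, so that they differ by label in treatment alone. THZ531 is an inhibitor of the transcriptional kinases CDK12 and CDK13, lapatinib inhibits EGFR and HER2, and nilotinib inhibits ABL and related kinases. The comparisons ask what each agent did alone, whether the combinations changed genes that neither agent changed, and whether they resembled the high dose of THZ531.

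Proteins that enter the secretory pathway are folded in the ER by the lumenal chaperone BiP (*HSPA5*), its J-domain partners, lectin chaperones and disulfide isomerases, and those that fail are returned to the cytosol by ER-associated degradation. When unfolded proteins build up, the membrane sensors IRE1 (*ERN1*), ATF6 and PERK signal to the nucleus. IRE1 splices the *XBP1* mRNA to give an active transcription factor, ATF6 is cut to release another, and PERK reduces translation while favouring ATF4. ATF6 and spliced XBP1 raise the transcription of chaperone and degradation genes through short promoter elements.

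Promoter windows were matched for 32 of the 35 genes in the RefSeq table for GRCh38.p14. In the windows of 250 bases before to 50 bases after the start, the ER stress response element (ERSE: CCAAT, 9 bases of any kind, CCACG) was found on either strand in 7 members (21.9%) and in 22 of 27305 promoters (0.0806%). The related element ERSE-II (ATTGG, any base, CCACG) occurred in 3 members (9.38%) and in 15 promoters (0.0549%). The unfolded protein response element TGACGTGG occurred in 1 member and in 217 promoters (0.795%). The members that held at least 1 of them were *CALR*, *CANX*, *CRELD2*, *ERO1B*, *HSP90B1*, *HSPA5*, *XBP1*, *HERPUD1*, *HYOU1* and *SDF2L1*. The 250 bases before the start are shown for 5 of these, because *HSPA5*, *HSP90B1* and *HYOU1* were the motif holders with the highest fold changes in the combinations, *XBP1* had the lowest, and *HERPUD1* differed between treatments. They lie at chr9:125241344-125241593 on the minus strand, chr12:103930160-103930409 on the plus strand, chr11:119057206-119057455 on the minus strand, chr16:56931892-56932141 on the plus strand and chr22:28800570-28800819 on the minus strand. Each is written 5′ to 3′ on the strand of the gene and capitals mark the matched elements, which in HYOU1 include a TGACGTGG that overlaps an ERSE-II.
HSPA5: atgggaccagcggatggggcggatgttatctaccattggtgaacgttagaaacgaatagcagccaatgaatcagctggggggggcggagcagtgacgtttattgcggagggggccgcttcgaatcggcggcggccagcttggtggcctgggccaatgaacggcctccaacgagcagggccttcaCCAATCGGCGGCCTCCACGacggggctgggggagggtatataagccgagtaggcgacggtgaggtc
HSP90B1: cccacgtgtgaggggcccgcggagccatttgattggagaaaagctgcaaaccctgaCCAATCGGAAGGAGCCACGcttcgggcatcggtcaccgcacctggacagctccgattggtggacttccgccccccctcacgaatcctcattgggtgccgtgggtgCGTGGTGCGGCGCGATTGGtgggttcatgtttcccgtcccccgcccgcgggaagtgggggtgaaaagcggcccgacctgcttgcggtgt
HYOU1: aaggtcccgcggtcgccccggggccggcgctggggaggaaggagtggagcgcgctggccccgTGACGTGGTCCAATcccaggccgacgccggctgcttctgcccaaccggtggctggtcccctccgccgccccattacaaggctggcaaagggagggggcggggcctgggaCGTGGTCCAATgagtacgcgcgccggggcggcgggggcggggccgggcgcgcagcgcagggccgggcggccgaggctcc
HERPUD1: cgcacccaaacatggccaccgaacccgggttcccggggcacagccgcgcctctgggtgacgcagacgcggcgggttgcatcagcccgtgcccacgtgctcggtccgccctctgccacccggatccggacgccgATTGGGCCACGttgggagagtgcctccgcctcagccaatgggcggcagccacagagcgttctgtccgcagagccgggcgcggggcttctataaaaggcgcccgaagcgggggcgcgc
XBP1: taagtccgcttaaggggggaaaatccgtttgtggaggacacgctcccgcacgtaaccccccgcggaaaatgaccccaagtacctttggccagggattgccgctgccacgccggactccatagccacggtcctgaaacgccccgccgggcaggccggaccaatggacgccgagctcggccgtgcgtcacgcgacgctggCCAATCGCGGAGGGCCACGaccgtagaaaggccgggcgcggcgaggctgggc

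Such a match describes the letters in the window and was not tested as a binding site. Members and elements were both chosen for their part in this response, so the shares are a description and not a test. The 10 motif holders were all tested. Their median log2 fold change against DMSO under TMM was 0.41 with lapatinib and 0.66 with the lapatinib combination. It was 0.17 and 0.44 over the 34 members tested, which include these 10, and -0.01 over all genes in both. The 10 include *ERO1B*, whose counts were low. In the lapatinib combination 7 of the 10 were called higher and *XBP1* lower under TMM, where 34.3% of all genes were higher and 37.8% lower. With scaling to mitochondrially encoded mRNAs, described below, 1 of the 10, *HSPA5*, was called higher and 2 lower, against 5.30% and 58.4% of all genes, and their median was -0.03. With lapatinib alone 2 of the 10 were called higher under TMM (0.256% of all genes) and 1 with this scaling (0.143%). Their median with this scaling was 0.27, against 0.03 over the members and -0.15 over all genes.

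Total counts per library were 97612207 to 112229052. The mesenchymal markers *VIM*, *FN1*, *SPARC*, *CD44* and *AXL* were all detected, with a summed level of 13158 to 14440 counts scaled to library size (CPM) in DMSO, and of 5 epithelial and hormone receptor genes *EPCAM* and *PGR* were below 0.1 CPM in every library, *CDH1* and *ESR1* were at 0.0972 to 0.502 CPM, and *KRT8*, a keratin, was at 20.3 to 21.2 CPM in DMSO. The mesenchymal sum was 17848 to 20008 CPM in the combinations and 18184 to 19259 CPM with 1 µM THZ531. *KRT8* was at 30.3 CPM or more in every library of these treatments, and *PTPRC*, a leukocyte gene, was also higher there with a sum for it and *PECAM1* of at most 2.85 CPM. The part of these shifts in the results was not tested. The share of the 13 mitochondrially encoded mRNAs was 1.25% ± 0.0895 (SD, n = 3) in DMSO and 1.60% ± 0.139 (SD, n = 3) in the lapatinib combination. The libraries were unstranded, so reads of *HYOU1*, *CALR*, *PDIA3*, *PDIA6*, *P4HB*, *ERO1A*, *SYVN1*, *EDEM1*, *DERL1*, *DERL3*, *OS9* and *ERN1* cannot be told apart from those of genes that overlap their exons on the opposite strand, and *DNAJB11* shares exon bases with a gene on its own strand. In bulk RNA, fewer cells of a type and less RNA per cell cannot be told apart.

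In DMSO, levels per kilobase of the reference transcript differed widely among the members. The lectin chaperone *CALR* led with 811 CPM per kb, followed by *CANX* with 357, the disulfide isomerase *P4HB* with 332, *HSP90B1* with 308 and *HSPA5* with 222. The libraries of *P4HB* spanned 732 to 927 CPM, so its place next to *CANX* and *HSP90B1* in this order is within its spread. At the other end *ERN1*, the sensor kinase, stood at 0.553 CPM per kb. *ATF6B* had 4 to 83 counts per library in DMSO and *ERO1B* 16 to 46, too few for either to be followed below.

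One library stands apart and is described before the comparisons. In nilotinib replicate 1 *HSPA5* was at 2166 CPM, against 999 and 1052 in the other nilotinib replicates and 855 to 892 in DMSO. *HERPUD1*, a membrane protein of the degradation complex, was at 80.7 CPM against 42.8 and 42.4, and *XBP1* was at 178 against 106 and 105. This library was the highest of the 3 for 28 of the 34 members (82.4%), and for 41.0% of all genes tested. It exceeded the others by more than 0.5 on the log2 scale for 6 members (17.6%), namely *HSPA5*, *HERPUD1*, *SDF2L1*, *MANF*, *XBP1* and *DNAJB9*, and for 3.06% of all genes. Some genes listed for the PERK arm and integrated stress response shared the pattern, with *CHAC1* at 19.9 CPM against 6.54 and 7.10, and *ATF4* at 261 against 115 and 118. Others of that list did not, with *PPP1R15B* at 73.3 against 72.9 and 76.0 and *EIF2AK3*, which encodes PERK, at 15.3 against 14.9 and 14.7. Because all groups shared an estimate of the spread, this library widened the error of the same genes in every comparison, and results are given with and without it.

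**Figure D1:**
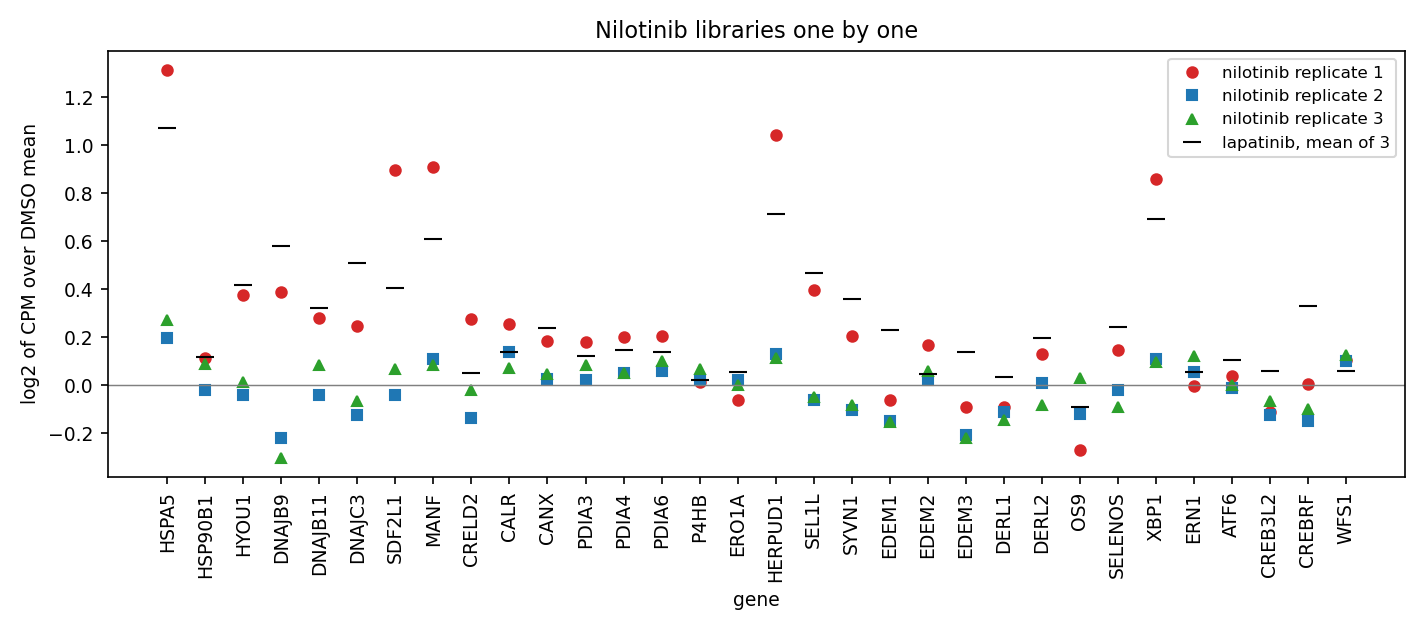
Log2 ratio of CPM to the mean of the 3 DMSO libraries for 32 members (y axis), for each nilotinib replicate (coloured symbols) and for the mean of the lapatinib libraries (black bars), without *ATF6B*, *ERO1B* and *DERL3*, whose counts were near or at 0. Nilotinib replicate 1 stands above the other nilotinib replicates for *HSPA5* (2166 CPM against 999 and 1052), *HERPUD1*, *SDF2L1*, *MANF* and *XBP1*, near or above the lapatinib mean.

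With THZ531 at 0.1 µM the module stayed near DMSO. No member was called lower or higher by edgeR, where 4.31% of all genes were called lower and 1.78% higher. At an unadjusted p under 0.05 there was 1 lower and 0 higher (11.4% and 7.84% of all genes), and DESeq2 called 1 lower and 0 higher (5.05% and 3.66%). The member with an unadjusted p under 0.05 was *EDEM3*, a mannosidase that marks misfolded glycoproteins for degradation, at 41.8, 42.2 and 39.7 CPM against 53.5, 50.6 and 46.4 in DMSO. All 3 treated values lay below all 3 controls, which held for 15.4% of all genes, and the log2 fold change was -0.28 ± 0.09 (SE, adjusted p = 0.064). The median over members was 0.01.

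Lapatinib alone raised *HSPA5*, and under TMM a small number of other members. edgeR called 5 members higher and 0 lower, where 0.256% of all genes were called higher and 0.0561% lower. At an unadjusted p under 0.05 there were 18 higher and 0 lower (3.84% and 3.32% of all genes), and DESeq2 called 10 higher and 0 lower (0.675% and 0.232%). All 3 lapatinib libraries lay above all 3 DMSO libraries for 18 members, against 7.84% of all genes.

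*HSPA5*, chr9:125234853-125241343 on the minus strand, was at 855, 892 and 866 CPM in DMSO and at 1856, 1966 and 1680 with lapatinib. The groups were well separated, and the log2 fold change was 1.07 ± 0.19 (SE, adjusted p = 0.017), a fold of 2.11. *DNAJC3*, a J-domain co-chaperone of BiP, was at 86.3, 82.5 and 81.3 CPM in DMSO and 117, 119 and 120 with lapatinib, a log2 fold change of 0.51 ± 0.08 (SE, adjusted p = 0.012). *SEL1L*, the scaffold of the HRD1 ubiquitin ligase complex, was at 157, 154 and 146 CPM in DMSO and 219, 208 and 204 with lapatinib. Again no library of one group reached the other, and the log2 fold change was 0.47 ± 0.09 (SE, adjusted p = 0.021). *DNAJB11*, another co-chaperone, rose from 94.5, 99.2 and 96.5 to 119, 121 and 123 CPM, by 0.32 ± 0.06 on the log2 scale (SE, adjusted p = 0.028). The change of *CANX*, a membrane-bound lectin chaperone, was smaller, from 1846, 1677 and 1745 to 2091, 2030 and 2099 CPM, or 0.24 ± 0.05 (SE, adjusted p = 0.047).

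With scaling to mitochondrially encoded mRNAs *HSPA5* kept its call (0.93), and those of *DNAJC3* (0.37), *SEL1L* (0.33), *DNAJB11* (0.19) and *CANX* (0.10) were lost, with adjusted p-values of 0.57 to 0.75. The fold changes of the genes that lost their call were smaller but stayed above 0. Their SE was 0.12 to 0.13, larger than under TMM. The calls were also sensitive to single libraries. In 21 fits that each left out a library, the adjusted p of *HSPA5* lay between 1.61e-07 and 0.105 and the call was lost in 6, those without a DMSO or a lapatinib replicate, while its log2 fold change stayed between 1.02 and 1.13. *CANX* was called in 3 of the 21. Without nilotinib replicate 1 the lapatinib comparison called 11 members higher (0.522% of all genes), adding *XBP1* (log2 fold change 0.70 ± 0.09, SE), *HERPUD1* (0.72 ± 0.09), *MANF* (0.61 ± 0.09), *DNAJB9* (0.58 ± 0.09), *HYOU1* (0.42 ± 0.08) and *SDF2L1* (0.41 ± 0.09). The fold changes were almost those of the fit with all libraries and the standard errors were smaller. *HERPUD1* was at 38.0, 37.6 and 41.7 CPM in DMSO and 71.0, 62.0 and 59.6 with lapatinib, and *XBP1* at 103, 93.6 and 98 against 178, 150 and 148. In both genes all lapatinib libraries exceeded all DMSO libraries, although with all libraries in the fit the adjusted p-values were 0.10 and 0.053.

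The disulfide isomerases and *HSP90B1*, a paralog of cytosolic HSP90, showed little with lapatinib. edgeR and DESeq2 each called 0 of the 6 disulfide genes, 1 of them, *PDIA6*, had an unadjusted p under 0.05, and their median log2 fold change was 0.13. *HSP90B1* was at 844, 877 and 845 CPM in DMSO and 813, 1041 and 930 with lapatinib, which overlap (0.12 ± 0.09, SE, adjusted p = 0.91).

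Nilotinib alone gave no call among the members by edgeR, where 0.243% of all genes were called higher and 0.0998% lower. At an unadjusted p under 0.05 there were 7 higher and 0 lower (5.15% and 4.51% of all genes), and DESeq2 called 1 higher, *HSPA5*, and 0 lower (1.54% and 0.595%). For *HSPA5* the log2 fold change was 0.69 ± 0.19 (SE, adjusted p = 0.12) with all libraries and 0.23 ± 0.08 (SE, adjusted p = 0.63) without replicate 1, so its size rests on that library. Without nilotinib replicate 2 it was called, with the lowest adjusted p of the 21 fits at 0.035.

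Lapatinib and nilotinib were given at different doses, 3.16 and 1 µM. Between them 2 members were called higher with lapatinib and 0 lower, where 0.355% of all genes were higher and 0.549% lower. They were *DNAJB9*, a J-domain protein that holds IRE1 in check, at 17.8, 15.6 and 17.5 CPM with lapatinib against 14.9, 9.76 and 9.23 with nilotinib (log2 difference 0.59 ± 0.14, SE, adjusted p = 0.041), and *DNAJC3* (0.48 ± 0.08, SE, adjusted p = 0.0082). For *DNAJB9* the call was lost in 12 of the 21 fits without a library. At an unadjusted p under 0.05 there were 12 higher and 0 lower (5.26% and 6.05% of all genes), and DESeq2 called 6 higher and 0 lower (1.17% and 2.02%). Without nilotinib replicate 1 there were 9 called higher (0.405% of all genes), *HSPA5* among them at 0.84 ± 0.09 (SE, adjusted p = 5.16e-05).

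**Figure D2:**
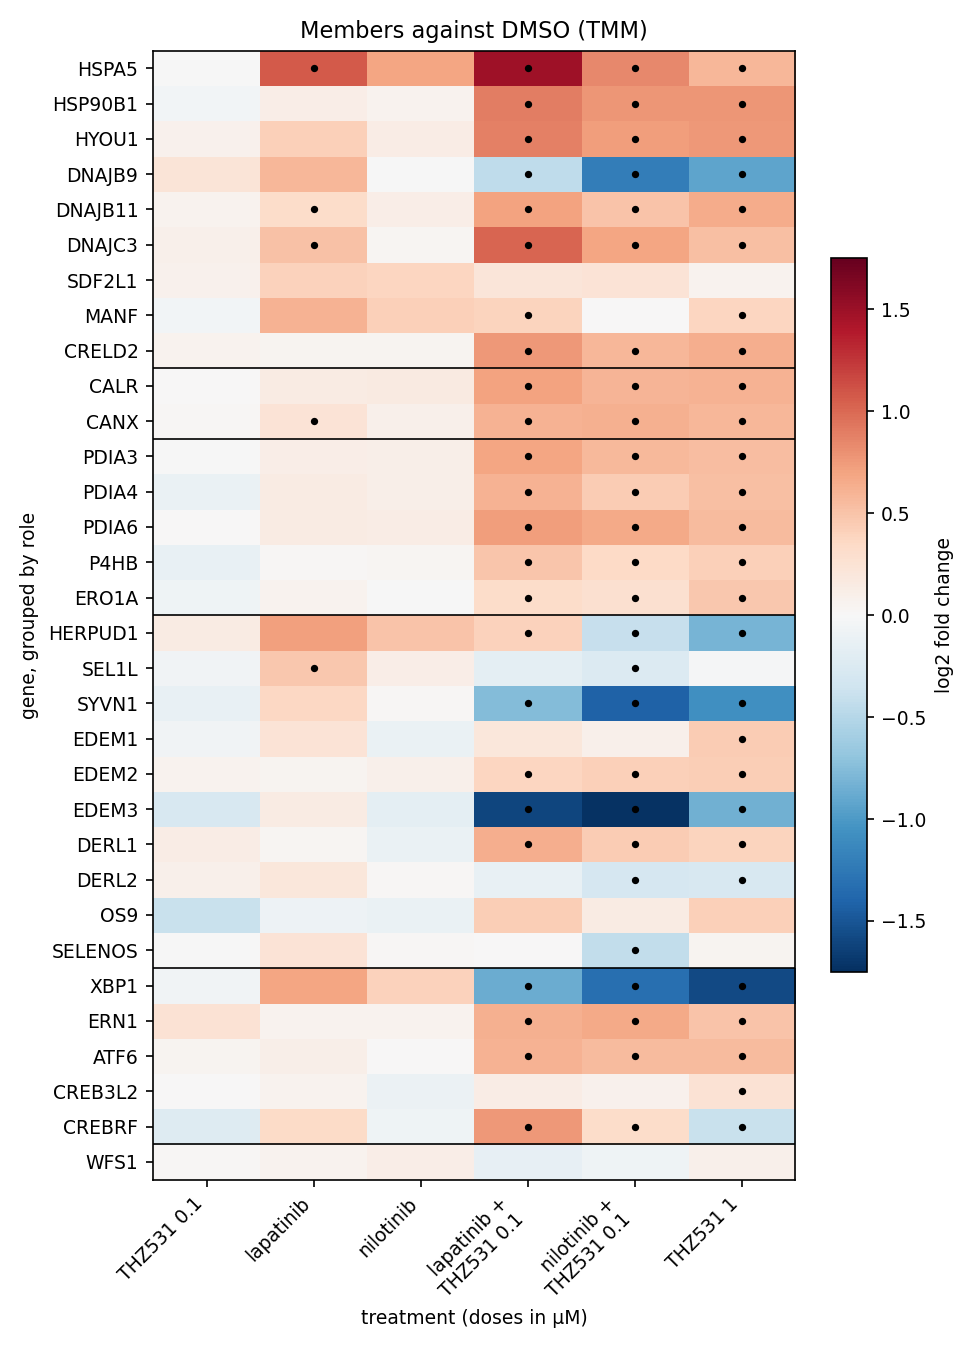
Log2 fold change against DMSO (colour, TMM scaling) of 32 members (rows, grouped by role from lumenal chaperones at the top to sensors and *WFS1* at the bottom) in the 6 treatments (columns, THZ531 doses in µM), with black dots at adjusted p under 0.05. Chaperone and disulfide genes are red in the combinations and with 1 µM THZ531, while *DNAJB9*, *SYVN1*, *EDEM3* and *XBP1* are blue. Scaling to mitochondrially encoded mRNAs moves all genes down in these treatments, so the called blue genes stay below 0 by the scaling itself. Of the called red ones 10 of 20, 6 of 18 and 9 of 20 stay above 0.

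The combinations and the high dose of THZ531 moved most of the module, as they did most of the transcriptome. In the lapatinib combination 20 members were called higher and 4 lower, where 34.3% of all genes were higher and 37.8% lower. In the nilotinib combination 18 were higher and 8 lower (33.7% and 37.3% of all genes), and with 1 µM THZ531 20 were higher and 7 lower (33.1% and 36.8%). Without nilotinib replicate 1 the counts were 21 higher and 5 lower (34.0% and 37.3% of all genes), 19 and 8 (33.4% and 36.8%), and 20 and 7 (32.7% and 36.3%). The members' medians were 0.44, 0.33 and 0.42 on the log2 scale, whereas the median of all genes was -0.01 in each. Few members passed a log2 change of 1: *HSPA5* and *DNAJC3* above it in the lapatinib combination, where 7.90% of all genes passed it, and *EDEM3* below it, where 21.3% did. In the nilotinib combination *EDEM3*, *SYVN1*, *XBP1* and *DNAJB9* passed it downward (20.8% of all genes) and with 1 µM THZ531 *XBP1* and *SYVN1* did (18.9%). Upward, 0 members passed it in these groups, where 6.54% and 5.77% of all genes did.

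These directions depend on the scaling. TMM sets the bulk of genes to no change, and if the libraries are scaled to the 13 mitochondrially encoded mRNAs instead, the median of all genes moves by -0.68, -0.62 and -0.54 in these comparisons. The splits then become 2 higher and 12 lower, 0 and 13, and 0 and 12, where 5.30% of all genes were higher and 58.4% lower, 4.83% and 55.9%, and 4.35% and 52.5%. Of the 20, 18 and 20 members called higher, 10, 6 and 9 keep a fold change above 0, and all 4, 8 and 7 members called lower remain called lower. Because the shift was downward, members below 0 under TMM stayed below 0 by the scaling itself. It put only the higher calls to a trial. With library size alone the lapatinib combination gave 13 higher and 9 lower (20.9% and 48.4% of all genes). Relative to the median of all genes the members stood 0.45, 0.35 and 0.43 higher with TMM and 0.45, 0.34 and 0.42 higher with the mitochondrial scaling. A change of scaling moves all genes of a comparison by about the same amount. This difference could therefore hardly change, and its likeness under both scalings is no separate result.

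**Figure D3:**
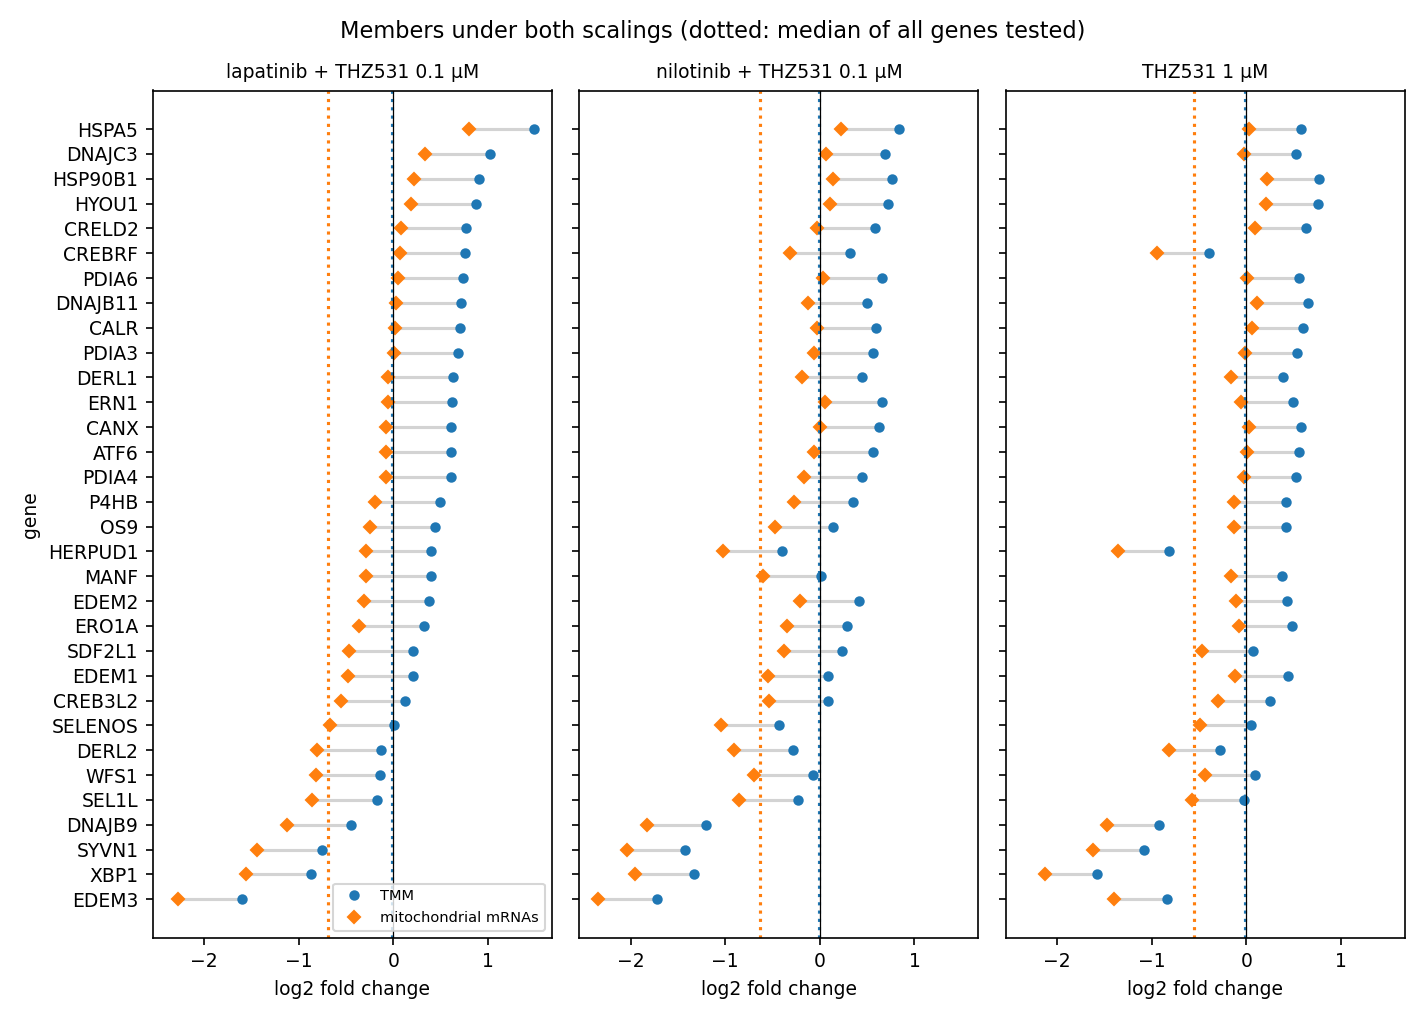
Log2 fold change against DMSO (x axis) of 32 members (rows, ordered by the lapatinib combination) in both combinations and with 1 µM THZ531, with TMM scaling (blue circles) and with scaling to mitochondrially encoded mRNAs (orange diamonds). Dotted lines mark the median of all genes, which moves from near 0 to -0.69, -0.63 and -0.55, and the members move left with it while *DNAJB9*, *SYVN1*, *XBP1* and *EDEM3* stay lowest in the lapatinib combination.

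Among the 9 lumenal chaperones and co-chaperones, 7 rose in the lapatinib combination, 6 in the nilotinib combination and 7 with 1 µM THZ531 under TMM, and 1, *DNAJB9*, fell in each. Of all genes 34.3%, 33.7% and 33.1% were called higher in these treatments and 37.8%, 37.3% and 36.8% lower. With the mitochondrial scaling 2, 0 and 0 of the 9 were called higher and 2 lower in each. The shares of all genes were then 5.30%, 4.83% and 4.35% higher and 58.4%, 55.9% and 52.5% lower. *HSPA5* was at 2078, 2684 and 2542 CPM in the lapatinib combination, 1660, 1487 and 1518 in the nilotinib combination and 1387, 1259 and 1260 with 1 µM THZ531, all above the DMSO values. The log2 fold changes were 1.48 ± 0.19 (SE, adjusted p = 6.89e-07), 0.84 ± 0.19 (adjusted p = 0.00050) and 0.58 ± 0.19 (adjusted p = 0.0092). With the mitochondrial scaling *HSPA5* remained called higher in the lapatinib combination, as did *DNAJC3*, and these were the 2 members higher there under both scalings. In the nilotinib combination and with 1 µM THZ531 their calls were lost with the mitochondrial scaling, at 0.22 and 0.03 for *HSPA5* and 0.06 and -0.03 for *DNAJC3*.

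*HSP90B1*, chr12:103930410-103947926 on the plus strand, which lapatinib had left near DMSO, was at 1360, 1756 and 1677 CPM in the lapatinib combination, 1346, 1460 and 1563 in the nilotinib combination and 1623, 1387 and 1369 with 1 µM THZ531. The log2 fold changes were 0.90, 0.77 and 0.77, each ± 0.09 (SE), under TMM. With the mitochondrial scaling they were 0.21, 0.14 and 0.22, and none was called. *HYOU1*, a large HSP70 relative that helps BiP exchange nucleotide, was at 313, 330 and 303 CPM in DMSO, and at 492, 612 and 635, then 483, 528 and 554, then 573, 519 and 505 CPM in the same order of treatments. Its groups did not overlap with DMSO and the log2 fold changes were 0.88, 0.72 and 0.75, each ± 0.10 (SE), under TMM. The mitochondrial scaling gave 0.19, 0.10 and 0.21, none called. *DNAJC3* reached 154, 177 and 177 CPM in the lapatinib combination, 132, 129 and 142 in the nilotinib combination and 132, 111 and 118 with 1 µM THZ531. The log2 fold changes under TMM were 1.02, 0.69 and 0.53, with SE of 0.09, 0.08 and 0.08.

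*DNAJB9*, chr7:108569874-108574850 on the plus strand, moved the other way from its relatives. It was at 10.9, 11.1 and 12.1 CPM in DMSO, at 8.23, 8.96 and 7.86 in the lapatinib combination, 4.67, 4.86 and 5.27 in the nilotinib combination and 6.18, 5.47 and 6.33 with 1 µM THZ531. The log2 fold changes were -0.44 ± 0.14 (SE, adjusted p = 0.0069), -1.20 ± 0.14 (adjusted p = 2.3e-07) and -0.92 ± 0.14 (adjusted p = 7.2e-06). Of the remaining lumenal members, *SDF2L1* was called in none of the 3 under TMM, with log2 fold changes of 0.07 to 0.24, whereas the mitochondrial scaling called it lower in the lapatinib combination (-0.47) and with 1 µM THZ531 (-0.47). *MANF* was called under TMM in the lapatinib combination (0.40) and with 1 µM THZ531 (0.38) but not in the nilotinib combination (0.01 ± 0.15, SE), where the mitochondrial scaling called it lower (-0.60).

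The lectin chaperones *CALR* and *CANX* and 5 of the 6 disulfide genes were called higher in all 3 treatments under TMM. Of all genes 34.3%, 33.7% and 33.1% were called higher in the lapatinib combination, the nilotinib combination and with 1 µM THZ531. *CALR* changed by 0.59 to 0.70 and *CANX* by 0.58 to 0.62 on the log2 scale. *PDIA6* had 0.73 in the lapatinib combination, and *ERO1A*, the oxidase that recharges the isomerases, had 0.32. *ERO1B* was not called. *P4HB* and *PDIA4* varied widely between replicates, *P4HB* from 864 to 1326 CPM within the lapatinib combination. Under the mitochondrial scaling none of them stayed called higher, and *CANX*, *PDIA4*, *P4HB* and *ERO1A* were below 0 in the lapatinib combination.

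The degradation genes split. Of 10 tested, 3 rose and 2 fell in the lapatinib combination, 2 rose and 6 fell in the nilotinib combination, and 3 rose and 4 fell with 1 µM THZ531 under TMM, whereas all 10 were below 0 in each with the mitochondrial scaling, where 6, 7 and 6 were called lower. The counts lower under TMM compare with 37.8%, 37.3% and 36.8% of all genes, and those with the mitochondrial scaling with 58.4%, 55.9% and 52.5%. *EDEM3*, chr1:184690237-184754858 on the minus strand, was at 18.2, 15.8 and 15.6 CPM in the lapatinib combination, 15.3, 13.8 and 16.5 in the nilotinib combination and 31.4, 26.4 and 26.5 with 1 µM THZ531. The log2 fold changes were -1.60, -1.72 and -0.84, each ± 0.09 (SE), with the lowest adjusted p at 1.7e-12. Its relatives *EDEM1* and *EDEM2* were not called lower under TMM. *EDEM2* was called higher in all 3 (0.37 to 0.43, TMM) and *EDEM1* with 1 µM THZ531 (0.44), and under the mitochondrial scaling both were below 0 in all 3.

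*SYVN1*, chr11:65127279-65134519 on the minus strand, encodes HRD1, the ubiquitin ligase at the centre of the pathway. It was at 43.9, 54.7 and 43.7 CPM in DMSO, 22.8, 30.6 and 30.7 in the lapatinib combination, 15.6, 18.4 and 19.3 in the nilotinib combination and 23.6, 21.4 and 22.4 with 1 µM THZ531. No treated library reached the controls, and the log2 fold changes were -0.76, -1.42 and -1.08, each ± 0.12 (SE). *SEL1L*, its partner, was at 138, 134 and 132, then 130, 127 and 131, then 158, 151 and 139 CPM, and under TMM the nilotinib combination alone was called (-0.23 ± 0.09, SE, adjusted p = 0.022), whereas the mitochondrial scaling called it lower in all 3 (-0.86, -0.85 and -0.58).

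*HERPUD1*, chr16:56932142-56944864 on the plus strand, did not move one way across the 3 treatments. It was at 50.5, 52.5 and 51.8 CPM in the lapatinib combination, above all DMSO libraries, at 32.4, 27.3 and 29.0 in the nilotinib combination and at 23.0, 18.4 and 25.1 with 1 µM THZ531, both below all DMSO libraries. The log2 fold changes were 0.40 ± 0.17 (SE, adjusted p = 0.043), -0.40 ± 0.17 (adjusted p = 0.043) and -0.82 ± 0.17 (adjusted p = 0.00032). The first of these was lost in 10 of 21 fits without a library and the second in 9, and under the mitochondrial scaling the lapatinib combination gave -0.29. *DERL1* was called higher in all 3 under TMM (0.39 to 0.63), *DERL2* lower in the nilotinib combination and with 1 µM THZ531 (-0.29 and -0.28), and *SELENOS* lower in the nilotinib combination (-0.43), while the mitochondrial scaling called *DERL2* and *SELENOS* lower in all 3. *OS9*, a lectin of the same complex, ranged from 72.0 to 166 CPM within the lapatinib combination and was not called.

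Among the sensors and transcription factors *XBP1* fell and *ATF6* and *ERN1* rose under TMM. *XBP1*, chr22:28794560-28800569 on the minus strand, was at 52.7, 55.5 and 53.1 CPM in the lapatinib combination, 39.6, 37.6 and 40.2 in the nilotinib combination and 34.9, 26.5 and 37.2 with 1 µM THZ531. All were below the DMSO libraries, and the log2 fold changes were -0.87, -1.33 and -1.58, each ± 0.15 (SE), with adjusted p-values of 3.5e-05, 1.9e-07 and 2.0e-08. Counts per gene do not separate the spliced from the unspliced form.

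*ATF6*, chr1:161766320-161964070 on the plus strand, varied little within groups, with 85.2, 83.5 and 86.1 CPM in DMSO and 133, 125 and 130 in the lapatinib combination, 128, 125 and 123 in the nilotinib combination and 128, 124 and 122 with 1 µM THZ531. The log2 fold changes were 0.61, 0.56 and 0.55, each ± 0.05 (SE), and under the mitochondrial scaling the combinations gave -0.08 and -0.06. *ERN1*, chr17:64039142-64130144 on the minus strand, was at 3.95, 5.38 and 3.77 CPM in DMSO, and at 5.32, 7.90 and 6.97, then 6.15, 7.57 and 6.99, then 7.38, 4.79 and 6.30 CPM. The groups overlapped with DMSO in the lapatinib combination and with 1 µM THZ531, and the log2 fold changes were 0.62, 0.66 and 0.50, each ± 0.17 (SE). *CREBRF*, a regulator that restrains the response, rose in the combinations (0.76 and 0.32) and fell with 1 µM THZ531 (-0.39) under TMM, and with the mitochondrial scaling the combinations gave 0.07 and -0.31, neither called, and 1 µM THZ531 remained called lower (-0.94). *CREB3L2*, an ER-anchored transcription factor, was called higher with 1 µM THZ531 (0.25) under TMM and lower there with the mitochondrial scaling (-0.30). *WFS1*, an ER membrane protein, was called in none of the 3 under TMM and lower in all 3 with the mitochondrial scaling (-0.82, -0.69 and -0.44).

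**Figure D4:**
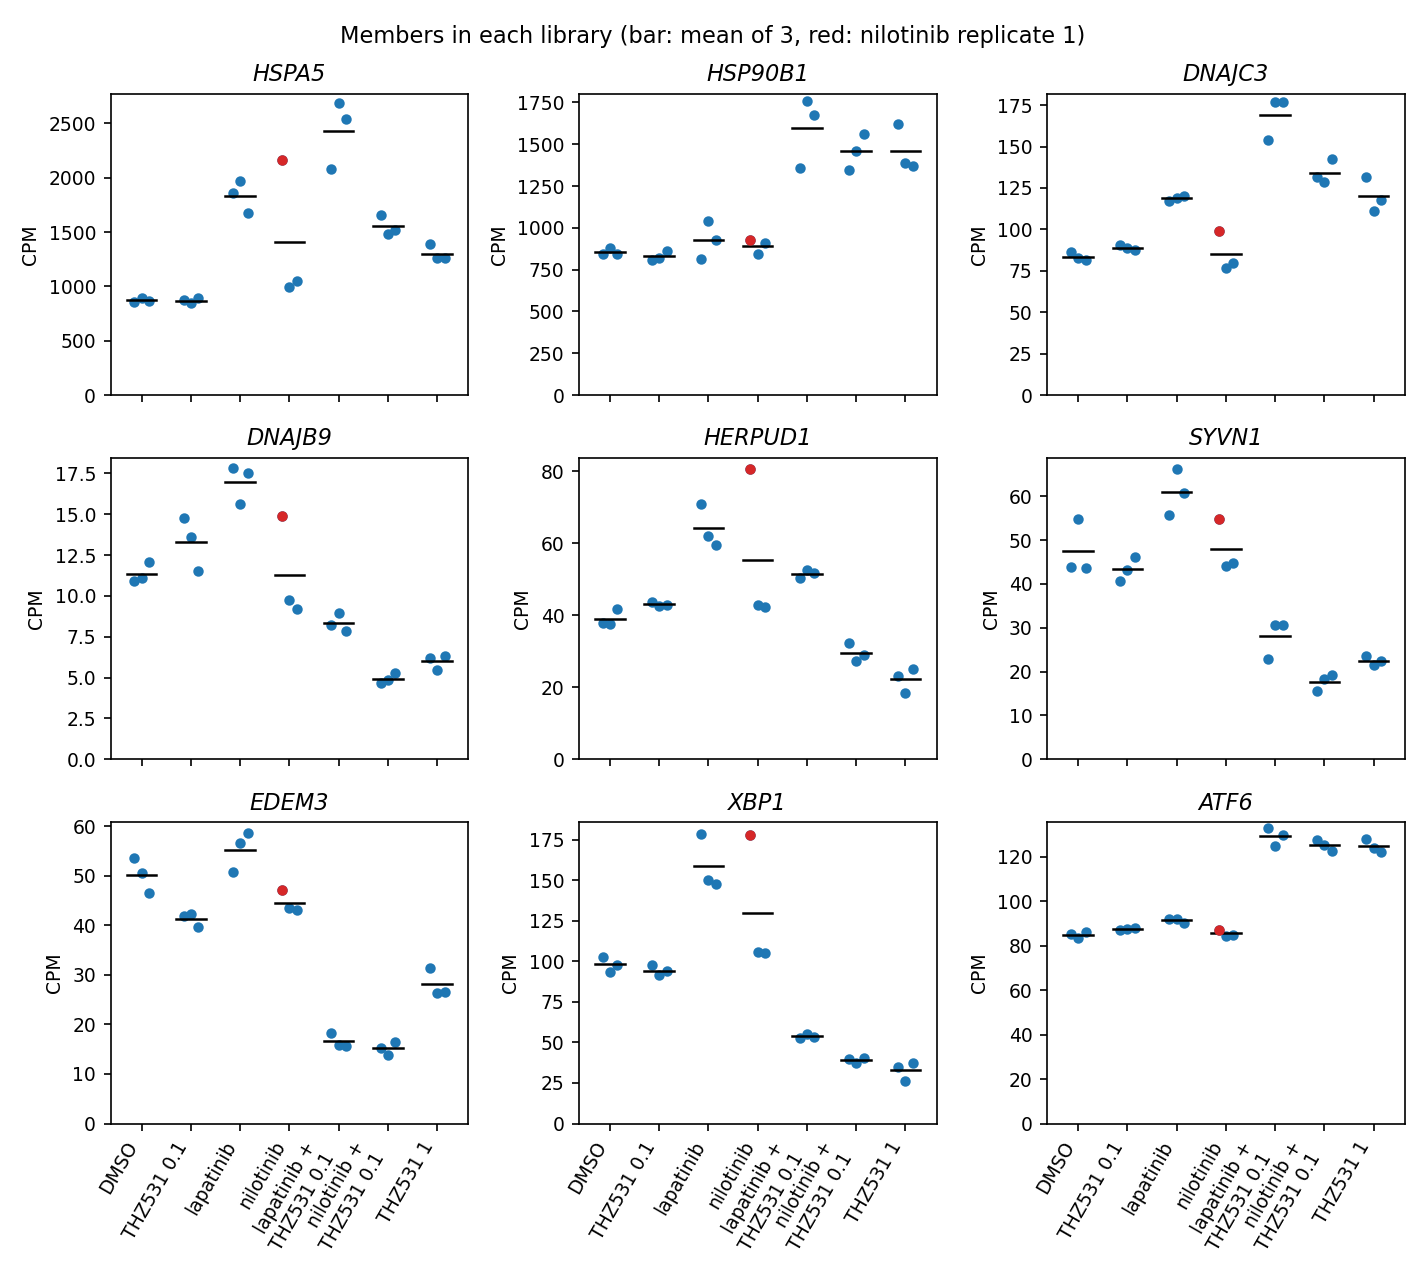
CPM (y axis, from 0) of 9 members in each of the 21 libraries (points), by group (x axis), with the mean of 3 as a black bar and nilotinib replicate 1 in red. *HSPA5* rises from 855 to 892 CPM in DMSO to 1680 to 1966 with lapatinib and 2078 to 2684 in its combination, while *XBP1* and *HERPUD1* are high with lapatinib alone and low with 1 µM THZ531.

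Set against 1 µM THZ531 rather than DMSO, the lapatinib combination had more members higher than lower. There 8 were higher and 2 lower, where 12.8% and 16.1% of all genes were. The higher members were *HERPUD1* (log2 difference 1.22 ± 0.17, SE, adjusted p = 2.8e-05), *CREBRF* (1.15 ± 0.13), *HSPA5* (0.90 ± 0.19), *XBP1* (0.71 ± 0.15), *DNAJC3* (0.49 ± 0.08), *DNAJB9* (0.48 ± 0.14), *DERL1* (0.24 ± 0.07) and *PDIA6* (0.18 ± 0.05). The lower members were *EDEM3* (-0.76 ± 0.09) and *WFS1* (-0.23 ± 0.07). *XBP1* and *DNAJB9* were below DMSO in both treatments, and less so in the combination. Without nilotinib replicate 1 there were 9 higher and 3 lower (12.6% and 15.8% of all genes), and under the mitochondrial scaling 5 were called higher (5.96%).

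The nilotinib combination differed from 1 µM THZ531 in 1 higher and 4 lower members, where 11.2% of all genes were higher and 13.0% lower. *CREBRF* was at 9.07, 10.2 and 9.98 CPM against 6.65, 4.33 and 6.94 (log2 difference 0.71 ± 0.13, SE, adjusted p = 0.00042). *EDEM3* (-0.89 ± 0.09), *SELENOS* (-0.48 ± 0.10), *EDEM1* (-0.36 ± 0.09) and *SYVN1* (-0.34 ± 0.12) were the lower ones, all of them degradation genes. The call of *SYVN1* was lost in 15 of 21 fits without a library, and without nilotinib replicate 1 there were 3 higher and 8 lower (11.1% and 12.7% of all genes).

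**Figure D5:**
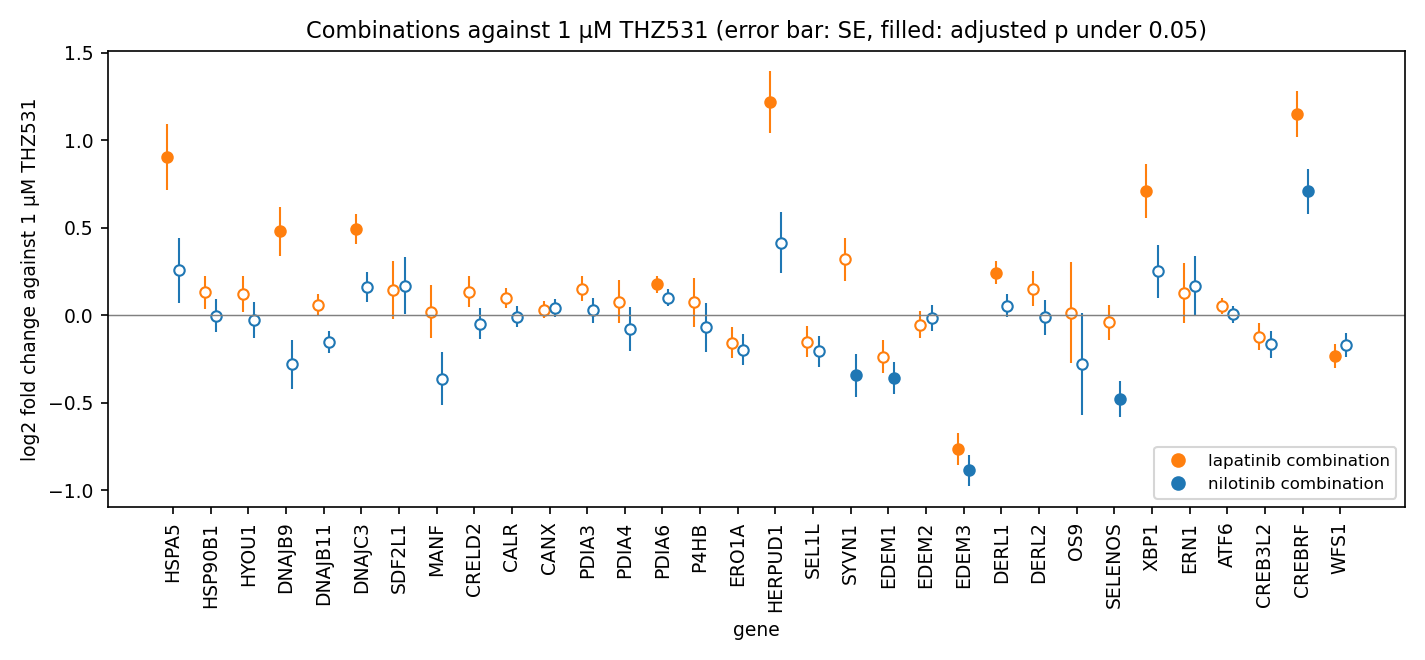
Log2 fold change of the lapatinib combination (orange) and the nilotinib combination (blue) against 1 µM THZ531 (y axis) for 32 members (x axis), with the standard error as the bar and filled points at adjusted p under 0.05. *HERPUD1* (1.22), *CREBRF* (1.15), *HSPA5* (0.90) and *XBP1* (0.71) stand highest in the lapatinib combination, and *EDEM3* lies lowest in both.

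Between the combinations 4 members were higher with lapatinib and 0 lower, where 0.730% of all genes were higher and 0.736% lower. They were *HERPUD1* (0.80 ± 0.17, SE, adjusted p = 0.024), *DNAJB9* (0.76 ± 0.14, adjusted p = 0.0094), *SYVN1* (0.66 ± 0.12, adjusted p = 0.0092) and *SELENOS* (0.44 ± 0.10, adjusted p = 0.031). *SELENOS*, a selenoprotein of the retrotranslocation complex, was at 35.5, 30.1 and 29.6 CPM in the lapatinib combination and 26.2, 22.9 and 21.3 in the nilotinib combination. *HSPA5* differed by 0.65 ± 0.19 (SE, adjusted p = 0.090). At an unadjusted p under 0.05 there were 11 higher and 1 lower (6.21% and 6.30% of all genes), DESeq2 called 8 higher and 0 lower (1.94% and 1.92%), and edgeR without nilotinib replicate 1 called 9 higher (0.879% of all genes), including *HSPA5* (0.65 ± 0.08, SE, adjusted p = 0.00019). With the mitochondrial scaling 0 were called (0.0624% and 0.0748% of all genes).

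The interaction contrast asks whether a combination differed from the sum of its agents. With lapatinib 16 members were above the sum and 6 below, where 28.2% and 32.0% of all genes were. With nilotinib 16 were above and 7 below (25.6% and 31.2%). *HSP90B1*, *CALR*, *PDIA3*, *PDIA6* and *ATF6* were above the sum in both under TMM, while with the mitochondrial scaling *CALR* with nilotinib (-0.018) and *ATF6* with lapatinib (-0.093) were below it. *XBP1* was below it by the widest margin in both, at -1.51 ± 0.21 and -1.67 ± 0.21 (SE): lapatinib alone had it at 148 to 178 CPM, 0.1 µM THZ531 at 91.3 to 97.5, and their combination at 52.7 to 55.5. *EDEM3*, *DNAJB9* and *SYVN1* were also below the sum in both. *HSPA5* was not called with lapatinib (0.41 ± 0.26, SE, adjusted p = 0.18), and without nilotinib replicate 1 it was (0.42 ± 0.11, SE, adjusted p = 0.0025). With nilotinib its interaction went from 0.15 ± 0.26 to 0.62 ± 0.11 (SE) when that library was left out, and the counts then were 17 above and 7 below with lapatinib (28.1% and 31.4% of all genes) and 17 and 5 with nilotinib (25.1% and 29.6%). Under the mitochondrial scaling 0 and 1 members were above the sum (3.70% of all genes in each) and 14 and 11 below (44.4% and 40.1%).

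The PERK arm and integrated stress response, listed separately with 10 genes, split as well. With lapatinib alone *ATF4*, its transcription factor, rose by 1.02 and *ASNS*, an amino acid enzyme under ATF4, by 0.97 on the log2 scale, and with nilotinib *ATF4* rose by 1.02, with replicate 1 at 261 CPM against 115 and 118. Of the 10, 2 were called higher with lapatinib alone and 1 with nilotinib under TMM (0.256% and 0.243% of all genes). With the mitochondrial scaling 5 and 1 were called higher (0.143% and 0.0187%). None was called lower with either inhibitor alone. In the lapatinib combination 5 were higher and 3 lower, in the nilotinib combination 4 and 3, and with 1 µM THZ531 2 and 5 under TMM, against 2 and 4, 1 and 5, and 1 and 8 with the mitochondrial scaling. Of all genes 34.3%, 33.7% and 33.1% were higher and 37.8%, 37.3% and 36.8% lower under TMM. The mitochondrial scaling called 5.30%, 4.83% and 4.35% of all genes higher and 58.4%, 55.9% and 52.5% lower. *ATF3*, a stress-induced transcription factor, rose by 2.70, 2.07 and 1.93 in these treatments, and by 2.02, 1.46 and 1.39 with the mitochondrial scaling. *DDIT3*, which encodes CHOP, fell by 1.13, 1.67 and 1.81 on the log2 scale, and the phosphatase subunits *PPP1R15A* and *PPP1R15B* fell in all 3. *ATF4* rose in the combinations under TMM (1.18 and 0.60, against 0.50 and -0.02 with the mitochondrial scaling), and with 1 µM THZ531 it was at 79.3, 71.4 and 73.8 CPM against 78.1, 86.0 and 80.3 in DMSO.

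Other lists of the pathway also held genes of both directions under TMM, and their counts stand beside the shares of all genes given above, 33.1 to 34.3% higher and 36.8 to 37.8% lower under TMM and 4.35 to 5.30% higher and 52.5 to 58.4% lower with the mitochondrial scaling. Of 16 other ER folding genes 13, 13 and 14 rose in the lapatinib combination, the nilotinib combination and with 1 µM THZ531, among them *PDIA5* (0.85 in the lapatinib combination) and *FKBP2* (0.78), and 2, 2 and 1 fell, with *TXNDC11* at -1.14, -1.22 and -1.15. With the mitochondrial scaling 0, 0 and 1 of these folding genes were called higher and 3, 4 and 2 lower. Of 16 other degradation genes tested 6, 7 and 5 rose and 8, 7 and 3 fell, *FAF2* by 2.18, 2.25 and 0.94 on the log2 scale, and with the mitochondrial scaling 1, 1 and 0 were called higher and 10, 10 and 11 lower. Of 7 genes of sensor processing and signalling 2, 2 and 1 rose and 3, 2 and 2 fell under TMM, against 0 called higher and 6, 5 and 6 lower with the mitochondrial scaling. *TRAF2*, the adaptor that binds IRE1, fell by 2.33, 2.12 and 1.73. *MBTPS1*, a protease that cuts ATF6, rose by 0.65, 0.59 and 0.68 under TMM, although with the mitochondrial scaling it was at -0.03 in both combinations. *MBTPS2*, of the same list, lay between -0.91 and -0.08 in these treatments under TMM. With the mitochondrial scaling *MBTPS2* was called lower in each, at -1.47, -1.54 and -0.63. Of 12 cytosolic and mitochondrial chaperones 10, 9 and 8 rose and 1, 1 and 2 fell, against 2, 1 and 1 called higher and 3 lower in each with the mitochondrial scaling. *HSP90AA1* rose by 0.79, 0.73 and 0.73, and *DNAJB1*, a co-chaperone of cytosolic HSP70, fell by 0.60, 0.87 and 1.21. *HSPA1A*, which has a near-identical copy, stayed at or below 1.53 CPM in every library. At this low level its log2 fold change was above 0 in all 3 treatments under TMM. With the mitochondrial scaling it was called higher in each, at 1.17, 0.902 and 1.02. With 1 µM THZ531 replicate 2, at 0.304 CPM, lay within the DMSO range of 0.213 to 0.354.

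Gene length was set beside the changes as a description. Over the 34 members Spearman's rho of genomic span with the log2 fold change was 0.12, 0.13 and 0.14 in the lapatinib combination, the nilotinib combination and with 1 µM THZ531, and over 15855 genes it was -0.19, -0.15 and -0.16. Genes are not independent replicates and share the same libraries, so no p is given. *EDEM3*, the lowest member in both combinations, has a span of 64.6 kb, *XBP1*, the lowest with 1 µM THZ531, has 6.01 kb, *SYVN1* has 7.24 kb, and *ATF6*, with 198 kb, rose under TMM.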

How the data were processed

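The deposited table holds raw counts for 21 libraries, which the authors had not normalized. Per the submitters' processing notes, reads were aligned with HISAT2 2.1.0 to GRCh38 and counted with featureCounts. The annotation used for counting is not given in the sources used here. Libraries were unstranded, from polyA RNA, and the study describes 3 independent experiments. Of counts between 1 and 20 in a library, 61.6 to 66.4% were even, so both ends of a pair may have been counted, and halved counts were tried as an alternative. Total counts were 97612207 to 112229052.

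Entrez IDs were named for 27745 of 28395 genes. Low counts were removed with filterByExpr of edgeR 4.0.16 (R 4.3.3), TMM factors (trimmed mean of M-values) were computed, and a quasi-likelihood model with 7 group means was fitted by glmQLFit. Contrasts were tested with glmQLFTest (two-sided) and adjusted by Benjamini-Hochberg over 16036 genes. A gene was called at an adjusted p under 0.05. The SE was taken from the log2 fold change and its F statistic. CPM values are counts scaled to the TMM-adjusted library size. Levels per kilobase used the canonical transcript of GENCODE v44, and coordinates are GRCh38. The procedure was tested on simulated data. Counts of replicates differed beyond sampling noise in every group.

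The alternatives were other scalings (DESeq2 size factors, library size, upper quartile, 13 mitochondrially encoded mRNAs), other filters, halved counts, a replicate block, a fit of only the groups compared, DESeq2 1.42.0 and leaving out each library. The members, the lists and the rule for naming genes were chosen with earlier results of these data known. Values in every library were given for the 4 highest and 4 lowest members by mean log2 fold change over both combinations and 1 µM THZ531, for *HSPA5*, *XBP1*, *ATF6*, *ERN1* and *HERPUD1*, and for members called with a low-dose single agent, between the combinations or between lapatinib and nilotinib. From the other lists, genes were named among the 3 highest and the 3 lowest by the same mean. *CREBRF* and *CHAC1* were named after their values were seen, and *EIF2AK3*, which encodes PERK, was named outside this rule. Retention signals of the proteins were not analysed here. One gene of the other degradation genes is not reported here by name.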

Additional observations from a re-analysis of the deposited data

Results flagged for a closer look

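The effect of an inhibitor differed between cells with and without 0.1 µM THZ531 for the members below, by the interaction term of the edgeR fit at an adjusted p under 0.05. Values are differences of log2 fold changes, positive where the combination exceeded the sum of its agents under TMM scaling.

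For lapatinib the members above the sum had interaction values of *HSP90B1* 0.83, *CRELD2* 0.65, *CREBRF* 0.65, *P4HB* 0.59, *PDIA3* 0.58, *PDIA6* 0.58, *PDIA4* 0.57, *CALR* 0.55, *DERL1* 0.46, *ATF6* 0.45, *DNAJC3* 0.42, *HYOU1* 0.39, *CANX* 0.36, *ERO1A* 0.34, *DNAJB11* 0.33 and *EDEM2* 0.26. Those below it had *XBP1* -1.51, *EDEM3* -1.46, *DNAJB9* -1.25, *SYVN1* -0.99, *SEL1L* -0.58 and *DERL2* -0.42.

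For nilotinib the members above the sum had interaction values of *HSP90B1* 0.75, *CREBRF* 0.63, *DNAJC3* 0.57, *HYOU1* 0.53, *CANX* 0.52, *PDIA6* 0.52, *ATF6* 0.50, *PDIA3* 0.48, *CRELD2* 0.46, *PDIA4* 0.45, *CALR* 0.43, *DERL1* 0.42, *ERO1A* 0.37, *DNAJB11* 0.32 and *EDEM2* 0.27. Those below it had *XBP1* -1.67, *DNAJB9* -1.42, *SYVN1* -1.31, *EDEM3* -1.27, *HERPUD1* -1.04, *SELENOS* -0.44 and *DERL2* -0.40. *ATF6B* was also called, at 5.50, from counts of 2 to 186 per library, and its highest count was in nilotinib combination replicate 3.

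The calls of *DERL2* and *SELENOS* with nilotinib were lost without nilotinib replicate 1, with adjusted p-values of 0.070 and 0.052. Other calls were lost in more of the 21 fits without a library. That of *EDEM2* was lost in 7 with lapatinib and 6 with nilotinib. *HYOU1* lost its call with lapatinib in 7, *PDIA4* with nilotinib in 7 and *ERO1A* with lapatinib in 3. With 3 libraries per group no library was tested as an outlier.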

How the results depend on the processing

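With the mitochondrially encoded mRNAs as the reference, lapatinib alone kept 1 call, *HSPA5* (log2 fold change 0.93), the lapatinib combination had 2 higher and 12 lower, the nilotinib combination 0 and 13, and 1 µM THZ531 0 and 12. The lapatinib combination against 1 µM THZ531 had 5 higher, the lapatinib interaction 0 above and 14 below, the nilotinib interaction 1 above and 11 below, and the 2 comparisons between the inhibitors 0. The members that passed the test under TMM and changed sign had these log2 values: in the lapatinib combination *MANF* -0.29, *CANX* -0.074, *PDIA4* -0.078, *P4HB* -0.19, *ERO1A* -0.36, *HERPUD1* -0.29, *EDEM2* -0.31, *DERL1* -0.058, *ERN1* -0.052 and *ATF6* -0.078, in the nilotinib combination *DNAJB11* -0.12, *CRELD2* -0.033, *CALR* -0.026, *CANX* -0.0022, *PDIA3* -0.057, *PDIA4* -0.17, *P4HB* -0.27, *ERO1A* -0.34, *EDEM2* -0.21, *DERL1* -0.19, *ATF6* -0.061 and *CREBRF* -0.31, with 1 µM THZ531 *DNAJC3* -0.025, *MANF* -0.16, *PDIA3* -0.014, *PDIA4* -0.022, *P4HB* -0.13, *ERO1A* -0.079, *EDEM1* -0.12, *EDEM2* -0.11, *DERL1* -0.16, *ERN1* -0.051 and *CREB3L2* -0.30, in the lapatinib interaction *HYOU1* -0.16, *DNAJB11* -0.22, *DNAJC3* -0.13, *CANX* -0.19, *ERO1A* -0.21, *EDEM2* -0.28, *DERL1* -0.081 and *ATF6* -0.093, and in the nilotinib interaction *DNAJB11* -0.11, *CALR* -0.018, *PDIA4* -6.05e-06, *ERO1A* -0.086, *EDEM2* -0.17 and *DERL1* -0.015. The cause of the shift was not tested.

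With library size alone there were 9 lower and 13 higher in the lapatinib combination, 11 higher in the nilotinib combination, 12 higher with 1 µM THZ531, 7 lower in the nilotinib combination against 1 µM THZ531, 10 below and 6 above in the lapatinib interaction and 6 above in the nilotinib interaction. *ERO1A* changed sign in both combinations (-0.0051 and -0.020), as did *CREB3L2* with 1 µM THZ531 (-0.011) and *EDEM2* in the lapatinib interaction (-0.032). Upper-quartile scaling gave 5 lower in the nilotinib combination and 9 lower against 1 µM THZ531. Shares of all genes are not given for this scaling, the count floor, halved counts, the groups compared or the replicate block. For left-out libraries they are given above only without nilotinib replicate 1. Counts without a share cannot be set against all genes. One member was lower with 0.1 µM THZ531 under library size alone, upper-quartile scaling, a floor of 10 counts, halved counts, a fit of the groups compared and DESeq2, 1 in each. A fit of only the groups compared gave 9 higher with lapatinib, 1 lower in the lapatinib combination and 2 lower and 2 higher in the nilotinib combination against 1 µM THZ531, 1 higher between the combinations and 0 between lapatinib and nilotinib. DESeq2 gave 10 higher with lapatinib (0.675% of all genes), 1 with nilotinib (1.54%) and 2 for the nilotinib combination against 1 µM THZ531 (11.7%). It gave 8 higher between the combinations (1.94%) and 6 between lapatinib and nilotinib (1.17%). No called member changed direction under any setting other than the mitochondrial and the library-size scaling. *ATF6B* in the nilotinib combination, which was not called, lay between -1.25 and 3.03 when a library was left out. The causes were not tested.

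Leaving out each library in turn gave 0 to 11 members higher with lapatinib, with 0 or 1 when a DMSO or lapatinib library was left out and 11 without nilotinib replicate 1. It gave 0 to 1 higher with nilotinib and 0 to 1 lower with 0.1 µM THZ531, 4 to 5 lower and 18 to 21 higher in the lapatinib combination, 6 to 8 lower and 15 to 19 higher in the nilotinib combination, and 6 to 7 lower and 17 to 20 higher with 1 µM THZ531. Against 1 µM THZ531 it gave 1 to 3 lower and 7 to 10 higher for the lapatinib combination, with 1 lower without 1 µM THZ531 replicate 2, and 3 to 8 lower and 1 to 3 higher for the nilotinib combination, with 8 and 3 without nilotinib replicate 1. Between the combinations it gave 0 to 9 higher, 0 without lapatinib combination replicate 2 and 9 without nilotinib replicate 1, and between lapatinib and nilotinib 0 to 9. The interactions gave 6 to 7 below and 13 to 17 above with lapatinib and 5 to 9 below and 13 to 17 above with nilotinib. The interaction of *ATF6B* was not called without nilotinib combination replicate 3.

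The replicate numbers did not pair the samples. Same-numbered libraries correlated between -0.85 and 0.91 in their deviations from the group means over 7166 genes, 36 of 63 pairs exceeded 0.1, and 8 of 21 libraries correlated best with their own number. With the replicate number as a block there were 6 members higher with lapatinib, 5 lower and 20 higher in the lapatinib combination, 8 and 18 in the nilotinib combination and 7 and 20 with 1 µM THZ531. The block ended no call of a member.

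With 97612207 counts or more per library, low counts limited mainly *ATF6B*, *ERO1B* and *DERL3*. In these unstranded libraries 2747 bases of the *DERL3* transcript overlap exons of *SMARCB1* on the opposite strand. Why the counts of these genes were low was not tested.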
